A study of Homo sapiens with 4 samples.

Results

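Reads from a MOV10 iCLIP study were examined on the transcripts of 4 chromatin regulators, ASXL1, NSD2 (also called WHSC1), MBD3 and MLLT6. Members were chosen by position: a region of the deposited list belonged to the set when it overlapped the hg19 limits of one of these genes by at least 1 nt on the gene's strand. This gave 12 of 1181 regions, with 5 in NSD2, 5 in MBD3, 1 in ASXL1 and 1 in MLLT6. The list holds regions with reads in both experiments, so the presence of reads in both is part of the choice and not a result. The genes were also chosen with earlier results of these files known, so the values below describe these genes and do not support the choice.

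The study used 4 libraries from HEK293F, a human embryonic kidney cell line grown in suspension, after UV cross-linking. In each of 2 experiments 1 library came from a pull-down with a MOV10 antibody and 1 from a control pull-down, made with an antibody unrelated to MOV10 (raised against zebra finch FMRP). The labels name no genotype, agent or time that differed between the groups, and do not say whether the experiments used separate cultures. Each read list is tied by the labels to the MOV10 and the control library of its experiment alike. No column of the lists gives the library of a read. MOV10 was therefore not compared with control, and every value belongs to an experiment's read list.

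MOV10 is an RNA helicase that unwinds RNA while moving along it, is found with Argonaute proteins in RNA granules, and is known for acting on 3' UTRs. In iCLIP, protein is joined to RNA by UV light, and because the reverse transcriptase often halts at the joined base, read starts lie next to it. Chromatin regulators act as writers, erasers or readers of marks on histones and DNA. NSD2 is a histone methyltransferase. ASXL1 is a partner of the BAP1 deubiquitinase, which removes ubiquitin from histones. MBD3 is a subunit of the NuRD complex, which joins nucleosome remodelling to histone deacetylation. MLLT6, also called AF17, is a PHD finger protein known as a fusion partner of the MLL gene in leukaemia.

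The list of experiment 1 held 4021 reads and that of experiment 2 held 6032, all of them inside listed regions, so these totals are not library depth. Of these, 76 reads of experiment 1 (1.89%) and 289 of experiment 2 (4.79%) lay in the 12 regions. Counted as distinct fragments, with reads of the same ends taken once, the 12 regions held 29 and 27, of 1806 and 1656 in the lists. A number in the read names was read as the copies of that sequence. By it the 12 regions held 423 and 7865 copies, of 16518 and 88074 in the lists. ASXL1 and MLLT6 took 265 of the 289 reads of experiment 2, and NSD2 and MBD3 took 69 of the 76 reads of experiment 1. The 4 genes were therefore not a uniform set.

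The regions lay at different places along the genes. Distances are genomic, from the limits of each gene on hg19. ASXL1 (chromosome 20, plus strand, 30946147 to 31027122) had a single region, from 30956857 to 30956911, which began 10710 nt from the gene's 5' limit and ended 70211 nt from its 3' limit. NSD2 (chromosome 4, plus strand, 1873123 to 1983934) had regions centred at 8.52%, 26.6%, 93.8%, 97.4% and 98.7% of its span of 110812 nt. The last 3 of the 5 thus lay near the 3' limit, and a stretch of 74403 nt upstream of them held none. MBD3 (chromosome 19, minus strand, 1576669 to 1592760) had regions at 29.8%, 33.8%, 44.6%, 96.6% and 99.3% of 16092 nt. MLLT6 (chromosome 17, plus strand, 36861873 to 36886056) had its region, from 36882299 to 36882331, at 84.5% of 24184 nt.

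**Figure D1:**
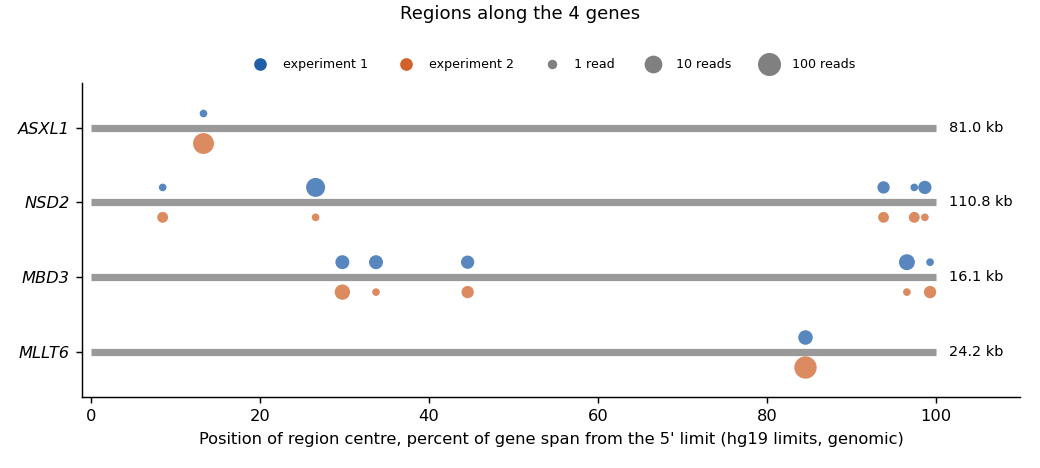
Position of the 12 regions along the 4 genes. The x axis gives the centre of each region as a percent of the gene's span from its 5' limit, each grey bar is a gene with its span at the right, and points above (experiment 1) and below (experiment 2) have an area that grows with the logarithm of the number of reads. NSD2 and MBD3 had regions in the 5' part and near the 3' limit, and the largest points are those of ASXL1 and MLLT6 in experiment 2.

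Introns, coding exons and 3' UTRs were not assigned, since no hg19 annotation was used here. Lengths of 3' UTRs, which need no position, were set beside the distances. They were taken from GENCODE release 29, which is on another build, for the transcripts with the longest coding sequence of each gene, as the 3'-most unbroken piece. In MLLT6 that piece is 4205 nt, and the far edge of the region lay 3757 nt from the gene's 3' limit. In MBD3 it is 1481 nt, and the far edges of the 2 regions nearest the 3' limit lay at 606 and 133 nt. In NSD2 it ranges from 5 to 3298 nt over 4 transcripts, and the 2 regions nearest the 3' limit reached to 2865 and 1491 nt. In all, 5 of the 12 regions lay nearer to the 3' limit than the longest such piece, and 7 lay farther away, among them the ASXL1 region. The limits of the genes can differ between the 2 annotations, so this is a comparison of lengths and not an assignment to a 3' UTR.

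NSD2, the methyltransferase, had 35 of its 44 reads of experiment 1, and 1 of its 8 of experiment 2, in 1 of its 5 regions. This region ran from 1902586 to 1902642. It held 352 and 2 copies, and 5 and 1 distinct fragments. Of the 35 reads, 31 ran from 1902604 to 1902642, and 33 began at 1902604. In each of the 3 groups of read names (those starting with 06, those starting with 07 and those with no prefix) the most copied read had these same ends, with 107, 94 and 116 copies. These 3 reads made up 90.1% of the copies, and the other 32 reads held 35 copies between them. What the groups of names stand for was not established, so they are not counted as replicates. The 1 read of experiment 2 ran from 1902586 to 1902627, 18 nt farther upstream at its 5' end, and overlapped the common fragment by 24 nt. Both experiments thus marked overlapping but different stretches here.

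The other 4 NSD2 regions held few reads in both experiments. The most 5' of them, from 1882553 to 1882581, held 1 and 2 reads. Toward the 3' limit, the region from 1977046 to 1977088 held 3 and 2 reads. The next, from 1981069 to 1981121, had 1 read in experiment 1 and 2 in experiment 2, and the last, from 1982443 to 1982520, had 4 and 1. In all 4 of them, a fragment of experiment 2 shared its 3' end with one of experiment 1 and started 1 nt farther downstream, such as 1982443 to 1982512 against 1982444 to 1982512. Most matches in the whole list also rested on this 1 nt step, as given below. The last region also held a second fragment in experiment 1, from 1982486 to 1982520, with 2 reads.

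ASXL1, the deubiquitinase partner, had an uneven region. It had 1 read of experiment 1 and 85 of experiment 2, with 5 and 2297 copies, and 1 and 6 distinct fragments. The read of experiment 1 was 55 nt long and had the highest mapping quality in the lists, 70. Mapping quality states how surely an aligner placed a read, and is low for reads that match other places nearly as well. The 85 reads of experiment 2 were 22 to 25 nt long, with a median quality of 26 and a highest of 56. They began 2 to 4 nt downstream of the read of experiment 1, 80 of them at 30956859, and ended 28 to 31 nt upstream of its 3' end. The main fragment, from 30956859 to 30956883, held 67 reads with qualities from 1 to 56, so quality also differed among reads with the same ends. Again 3 reads, 1 in each group of names, had the same ends and most of the copies, with 647, 673 and 852 of them (94.6% in sum). The other 82 reads held 125 copies, none more than 7, and 66 of them had a quality under 30.

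MBD3, the NuRD subunit, had reads spread over 5 regions. From the 5' limit on, experiment 1 held 5, 5, 4, 10 and 1 reads and experiment 2 held 8, 1, 3, 1 and 3. No MBD3 read had more than 8 copies, and the gene held 50 and 34 copies in all, against 25 and 16 reads. The region from 1577168 to 1577275 had the most fragments of the 12 in experiment 1, with 7 fragments and 6 different 5' ends among 10 reads. Its fragments covered neighbouring and partly separate stretches, such as 1577170 to 1577207 and 1577231 to 1577275. The single read of experiment 2 there ran from 1577170 to 1577219, the same bases as a read of experiment 1. Of the 12 regions, 1, this one, had a fragment identical at both ends in the 2 experiments, against 223 of all 1181 regions.

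In the most 5' MBD3 region, from 1587919 to 1588017, the fragment from 1587919 to 1587970 held 3 reads in experiment 1, and that from 1587919 to 1587969 held 7 in experiment 2. On the minus strand the second begins 1 nt farther downstream. Experiment 1 had a second fragment, from 1587960 to 1588017, with 2 reads, which experiment 2 lacked. In the next region, from 1587284 to 1587372, experiment 1 had 3 fragments, and 3 of its 5 reads had qualities of 19 or 29. The shared fragment, from 1587323, had a quality of 70 in both experiments. The region from 1585561 to 1585606 held a fragment of 46 nt with 3 reads in experiment 1 and one of 45 nt with 3 reads in experiment 2. The region nearest the 3' limit, from 1576759 to 1576802, held a read of 26 nt in experiment 1 and 3 reads of 28 nt in experiment 2, which overlapped by 10 nt. Those 3 reads had 6, 4 and 8 copies, 1 in each group of names.

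MLLT6, the PHD finger protein, had 6 reads of experiment 1 and 180 of experiment 2, with 7 and 5525 copies. All were short, 26 to 27 nt and 23 to 30 nt. The reads of experiment 1 began at 36882305 (4 reads) or 36882306 (2 reads) and ended at 36882331. In experiment 2, 169 of 180 reads began at 36882299, 6 nt upstream, and none ended beyond 36882328. The main fragment, from 36882299 to 36882324, held 136 reads and 5442 copies, with qualities from 4 to 30. The most copied reads of the 3 groups of names had 1614, 1620 and 2002 copies and these same ends, and made up 94.8% of the copies. The remaining 177 reads held 289 copies, none more than 8. As in ASXL1, the experiment with many reads had 1 main fragment with many close variants.

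**Figure D2:**
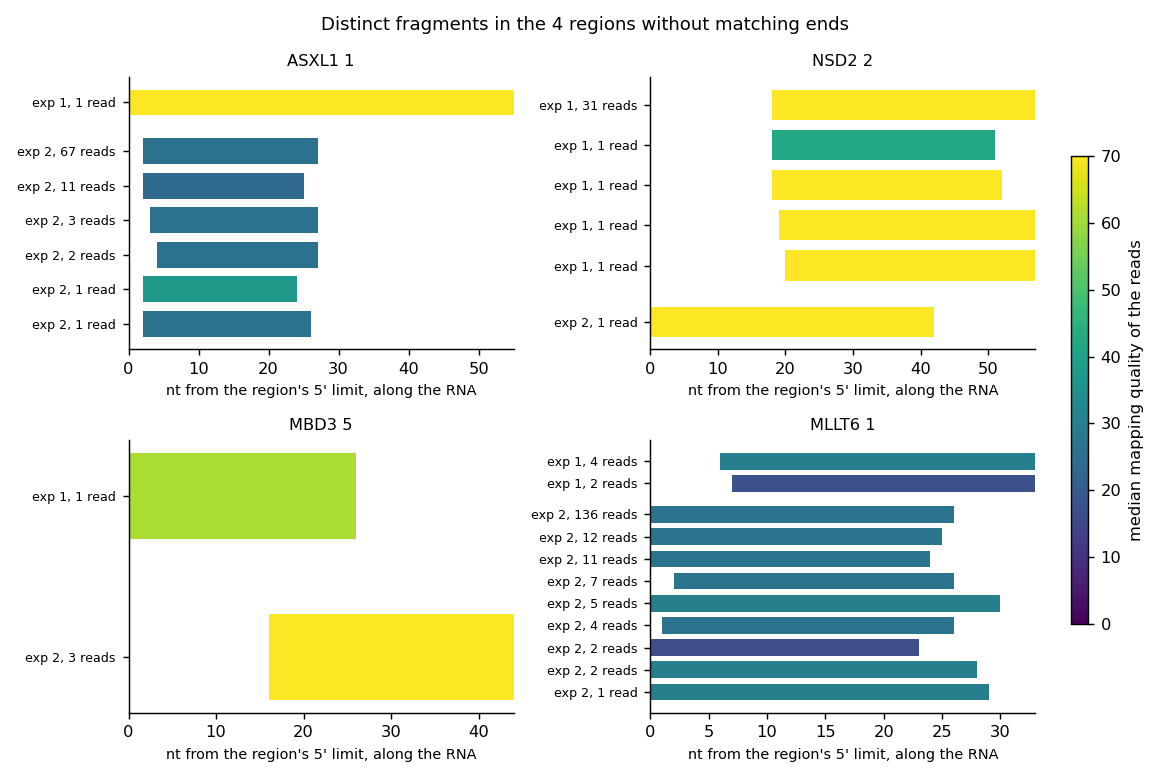
Distinct fragments in the 4 regions where no fragment had matching ends in the 2 experiments (the 1st region of ASXL1, the 2nd of NSD2, the 5th of MBD3 and the 1st of MLLT6, counted from the 5' limit). Each bar is a fragment, placed by nt from the region's 5' limit along the RNA, labelled by experiment and number of reads and coloured by the median mapping quality of its reads. The ASXL1 read of experiment 1 spans the whole 55 nt and the 85 reads of experiment 2 its 5' part.

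**Figure D3:**
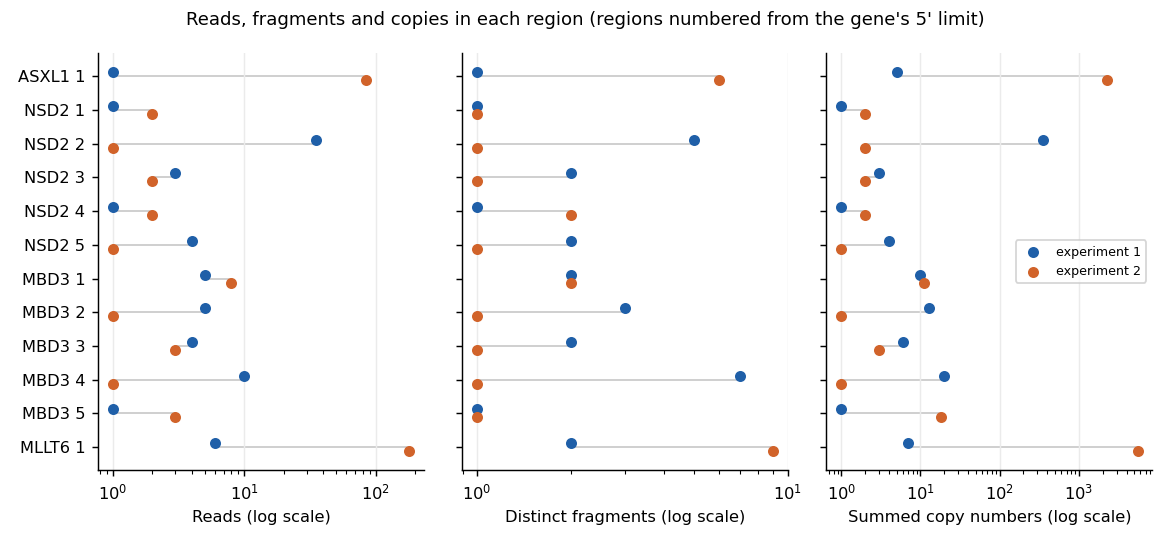
Reads, distinct fragments and summed copy numbers (log axes) in each of the 12 regions, numbered from the gene's 5' limit, in experiment 1 and experiment 2 (small vertical offsets keep the points apart). The gap between experiments in ASXL1 and MLLT6 is wide by reads and copies (1 against 85 and 6 against 180 reads) and narrower by fragments (1 against 6 and 2 against 9).

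The share of reads was compared between the experiments, which are replicates and not conditions, so a difference is one between replicate read lists. With Fisher's exact test (two-sided, p-values adjusted by Benjamini and Hochberg's method across the 1181 regions), 4 of the 12 regions differed at an adjusted p under 0.05, against 4.57% of all regions. The members were chosen with such results known, so their count is a description. In ASXL1 the share was 0.0249% (95% exact Clopper-Pearson interval 0.00063 to 0.138) in experiment 1 and 1.41% (1.13 to 1.74) in experiment 2, a log2 ratio of 5.82 (Fisher's exact test, adjusted p = 3.36e-16). In MLLT6 the shares were 0.149% (0.0548 to 0.324) and 2.98% (2.57 to 3.45), a log2 ratio of 4.32 (Fisher's exact test, adjusted p = 2.45e-30). Both differed with the higher share in experiment 2, as did 2.12% of all regions at an adjusted p under 0.05 by this Fisher's exact test.

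The other 2 regions differed with the higher share in experiment 1, as did 2.46% of all regions by the same test and threshold. The NSD2 region from 1902586 held 0.870% (interval 0.607 to 1.21) and 0.0166% (0.00042 to 0.0923) of the reads, a log2 ratio of -5.71 (Fisher's exact test, adjusted p = 1.41e-11). The MBD3 region from 1577168 held 0.249% (0.119 to 0.457) and 0.0166% (0.00042 to 0.0923), a log2 ratio of -3.91 (Fisher's exact test, adjusted p = 0.0187). This last call was lost when the test and its totals omitted the 20 regions of at least 50 reads (Fisher's exact test, adjusted p = 0.90), although the difference in share, experiment 2 minus experiment 1, was -0.232 percentage points with all reads and -0.240 then, while the NSD2 call held (Fisher's exact test, adjusted p = 2.02e-05). ASXL1 and MLLT6 are themselves among those 20.

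Counted by distinct fragments, none of the 12 regions differed by the same Fisher's exact test (0.423% of all regions did), and 1 of the 12, MLLT6, had an unadjusted p under 0.05 (Fisher's exact test, p = 0.0319), as had 24 of the 1181 regions. With fragments whose ends lay within 3 nt of each other joined, ASXL1 and MLLT6 each held 1 fragment group in both experiments. Reads with nearly the same ends may be copies of 1 molecule, so the p-values by reads can be too small. The 8 regions that did not differ by reads held at most 8 reads in either experiment, and at this depth smaller differences in share were not detectable. The intervals cover counting error only.

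**Figure D4:**
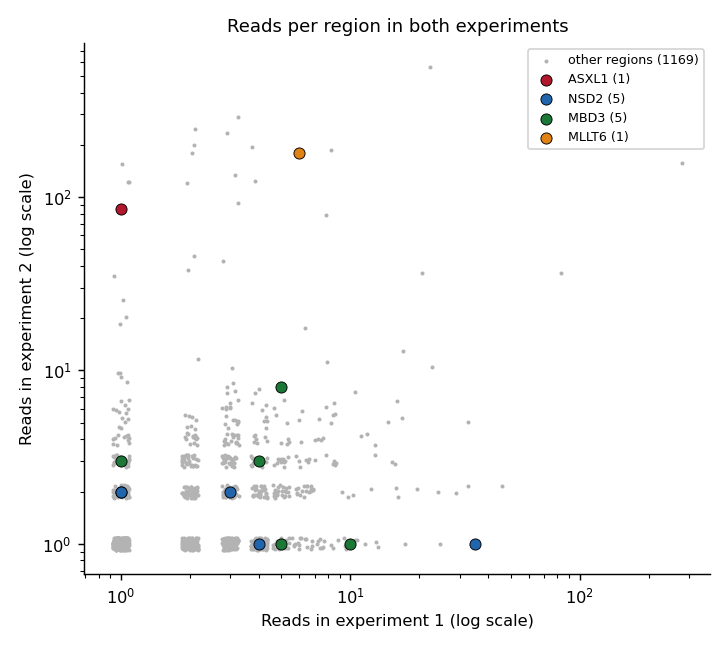
Reads per region in experiment 1 (x axis) and experiment 2 (y axis), both log scales. Grey points are the 1169 regions outside the 4 genes, moved slightly at random so that they can be told apart, and coloured points are the 12 regions. The NSD2 regions of 1 and 2 reads and an MBD3 region of 1 and 3 reads lie close together, ASXL1 stands at 1 and 85, and the NSD2 region of 35 and 1 reads lies at the lower right.

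Ends of fragments matched between experiments in 8 of the 12 regions, against 86.3% of all 1181 regions, where a match is a pair of fragments with 1 common 3' end whose 5' ends coincide or differ by 1 nt, experiment 2 being the farther downstream. The 8 were 4 of the 5 regions of NSD2 and 4 of the 5 of MBD3. The 4 without a match were those of ASXL1 and MLLT6, the NSD2 region from 1902586 and the MBD3 region from 1576759. Over all pairs of fragments with the same 3' end in these regions, 8 of 11 started 1 nt farther downstream in experiment 2, 1 started at a common base, and 1 each started 1 nt and 12 nt farther upstream. In the whole list 1019 of 1181 regions had matching ends and 223 had them at the same base. Most matches in the list thus also rested on the 1 nt step, which is not particular to these genes. Of the 4 regions whose share of reads differed, 3 had no matching ends. In those 3 regions the experiments differed both in how many reads they held and in which bases the reads covered. Matching ends were not counted among the 54 regions of the whole list that differed, so 3 of 4 describes these regions only.

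Mapping quality divided the genes into the same pairs in experiment 2. In NSD2, 43 of 44 reads of experiment 1 and 7 of 8 of experiment 2 had the top quality of 70, and in MBD3 21 of 25 and 16 of 16 had it. In ASXL1 1 of 1 read and 0 of 85 had it, and in MLLT6 0 of 6 and 0 of 180. Reads under a quality of 30 made up 77.6% of ASXL1 and 81.1% of MLLT6 reads in experiment 2, against 18.9% of all its reads. In MLLT6 no read passed 30 in either experiment, and 34 of 180 reads of experiment 2 had exactly 30. By copies the picture differed: reads of quality 56 held 95.6% of the ASXL1 copies of experiment 2, and reads of quality 30 held 95.7% of those of MLLT6. The most copied reads thus had the higher qualities of their region, and most of the many reads of few copies had lower ones.

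**Figure D5:**
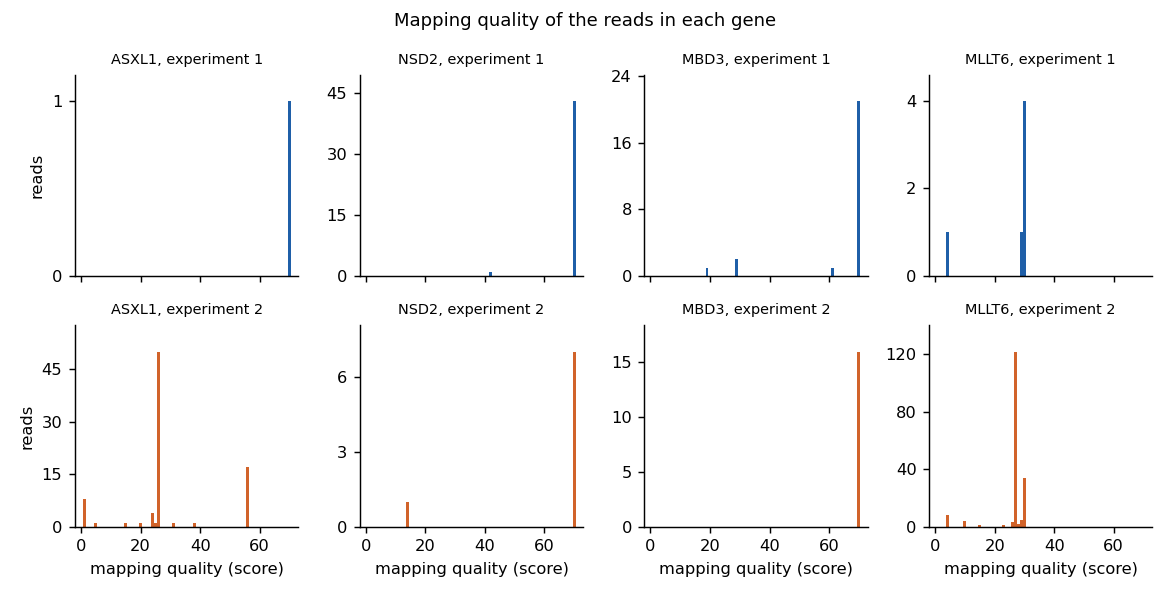
Number of reads at each mapping quality (the deposited score, x axis) in the 4 genes, with experiment 1 in the upper row and experiment 2 in the lower, and a separate y axis from 0 in each panel. NSD2 and MBD3 reads stand mainly at 70, ASXL1 reads of experiment 2 mainly at 26 (50 reads) and 56 (17 reads), and MLLT6 reads of experiment 2 at 27 (122 reads) and 30 (34 reads).

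With reads under a quality of 30 removed, ASXL1 held 1 and 19 reads and MLLT6 4 and 34, and both differences in share still passed (Fisher's exact test, adjusted p = 0.0135 and 0.00196). All MLLT6 reads kept had a quality of exactly 30, so a cut above 30 would have left no reads and no call there. With the cut at 30 the differences in share fell from 1.38 to 0.359 percentage points in ASXL1 and from 2.83 to 0.578 in MLLT6. In experiment 2 read length followed the same division. Reads under 27 nt made up 97% of the ASXL1 and MLLT6 reads of experiment 2, 4.17% of those of NSD2 and MBD3, and 22.0% of all reads of that experiment. Short reads, many reads and many copies thus occurred together in these 2 regions in experiment 2. Most reads there had a low quality, but the most copied ones had the higher qualities of their region. The MLLT6 reads of experiment 1 were also short, 26 to 27 nt, with a highest quality of 30. The 1 ASXL1 read of experiment 1 was not, at 55 nt and a quality of 70. The part of these traits in the difference between experiments was not tested. Over the whole list, 2 regions held at least 50 reads in experiment 1 and 19 did in experiment 2. Outside the 4 genes were 17 of those 19, so many reads in experiment 2 are not particular to ASXL1 and MLLT6. Read lengths in those 17 regions were not examined.

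The NSD2 and MBD3 regions can be set beside the whole list. A best quality of 70 in both experiments was found in 9 of these 10 regions and in neither of the ASXL1 and MLLT6 regions, so in 75% of the 12, against 58.3% of all regions. The genes were paired here after their qualities were seen. Their median numbers of reads per region were 4 in experiment 1 and 2 in experiment 2, against 2 and 1 over all regions. Median width was 54 nt for the 12 regions and 38 nt for all, and the widest, 108 nt, was the MBD3 region from 1577168. Region limits follow the reads, so width and number of reads are not independent of each other. By rank among the 1181 regions in experiment 2, MLLT6 was 8th by reads and 15th by fragments, and ASXL1 was 18th and 24th. The NSD2 region from 1902586 was 4th by reads and 29th by fragments in experiment 1.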

How the data were processed

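Each library got its own primer barcode and was sequenced on a HiSeq2000, per the labels' protocols. The tools named are Novoalign, bedtools, SAMtools and CASAVA 1.8.2, and the build hg19, per the submitters' processing notes. How regions were called is not given in the sources used here. In the lists, the deposited score, a whole number from 0 to 70, was read as mapping quality, and the number before the last in a read name as copies, which are inferences from the values (copies never rose with rank, 0 breaks). Positions are 1-based.

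Members and lists were chosen with earlier results of these data known. All 12 regions in the 4 genes are named. A list of other chromatin regulators was not analysed here, nor were sequences and transcript parts, for want of an hg19 annotation and genome. Fisher's exact tests were run on all 1181 regions with Python 3.11.15, numpy 2.4.6, pandas 2.3.3 and scipy 1.17.1, and figures drawn with matplotlib 3.10.9. The test was tested on simulated reads drawn independently of each other, so it was not tested for reads that may be copies of 1 molecule. Markers of the cell line could not be checked in pull-down reads. Whether the experiments are separate cultures is not stated. The p-values, like the intervals, take in counting error only and measure no spread between cultures or libraries.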

Additional observations from a re-analysis of the deposited data

How the results depend on the processing

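The number of the 12 regions with a different share of reads was 4 with all reads. It was also 4 with a minimum mapping quality of 30, where all MLLT6 reads kept had exactly 30. It was 3 within each of the 3 groups of read names, parts of the same read lists that are not counted as replicates. The MBD3 region from 1577168 was called in none of these groups. The number was 0 by distinct fragments. It was 1 when regions of 50 or more reads were left out of test and totals, where ASXL1 and MLLT6 were not tested. Over all regions the count was 54, and 44 with the minimum quality, 27, 25 and 24 in the groups of names, 5 by fragments and 14 with the reduced totals. By fragments, 0 of the 12 differed under each of 2 alternatives, and over all regions 5 became 2 with the minimum quality and 0 with fragments within 3 nt joined. Matching ends fell from 8 regions to 1 when the same base was required at both ends (over all 1181 regions, from 1019 to 223), and were found in 1 of 3, 4 of 7 and 3 of 6 regions that held reads of both experiments within a group of names. Fewer reads were used within these groups, and for the other changes the cause was not tested. The directions of the 4 differences were the same under all alternatives that gave a value for them, copies included. The number of regions was 12 under each alternative, and stayed between 12 and 12 without replicate 1 or 2, which it could not fall below, since each region holds reads of both. No paired analysis was possible because MOV10 and control reads cannot be told apart in the lists. Low read numbers limit what can be seen. Of the 12 regions, 8 rest on 1 read in at least 1 experiment, and 9 hold at most 10 reads in both. The regions of ASXL1, NSD2 and MBD3 whose share of reads differed are among the 8.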
